A study of Mus musculus with 4 samples.

Results

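GABA neurons of the mouse thalamic tissue in which no transcript of Dlx6os1 was found were examined in 4 single-nucleus RNA sequencing (snRNA-seq) libraries. Of 32332 nuclear barcodes, 2675 were chosen by UMI counts, a UMI being a tag that marks 1 captured RNA molecule. A nucleus was taken when mitochondrial UMIs were under 5% and at least 4000 UMIs were present. At least 4 of the 5 neuronal genes Rbfox3, Snap25, Syt1, Myt1l and Celf4 had to be detected. Gad1 plus Gad2 had to reach 3 UMIs and exceed Slc17a6 plus Slc17a7, Dlx6os1 had to be at 0, Nwd2 under 10 and Npsr1 under 5 UMIs. The levels of these 12 genes are therefore part of the definition and are given below only as a description. The NS group had 890 such nuclei in replicate 1 and 721 in replicate 2, and the COL group had 396 in replicate 1 and 668 in replicate 2.

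The 4 libraries came from adult wild-type (WT) mice. In the COL group, collagenase IV (Coll IV, an enzyme that breaks vessel walls and so causes bleeding) was injected into the right ventral posteromedial and posterolateral thalamus, and the NS group received saline. Tissue was taken a week later, and every library pooled several mice. With 2 libraries in a group, a p-value measures the spread between pools only, and the exact permutation test on library values cannot go below 0.333.

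GABA neurons make GABA, the main inhibitory transmitter of the brain, with the enzymes encoded by Gad1 and Gad2, and load it into vesicles with the transporter encoded by Slc32a1. Most inhibitory neurons of the forebrain and of the prethalamus, which forms the reticular thalamic nucleus, arise from progenitors that use the Dlx homeobox genes. Dlx6os1 is a long non-coding RNA made from the Dlx5/Dlx6 locus. Inhibitory neurons that arise in the midbrain and pretectum instead use the zinc finger factors Gata2 and Gata3, the basic helix-loop-helix factor Tal1 and, in part, the homeobox factor Otx2 and the SOX factor Sox14, and some of them settle in the thalamus.

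In the GENCODE M21 annotation of GRCm38, the same assembly as the mm10 of the files, Dlx6os1 (ENSMUSG00000090063) is an antisense gene on the minus strand of chromosome 6 from 6820189 to 6871592, and it spans all 5235 bases of Dlx6. Otx2os1 (ENSMUSG00000098682), which was followed among the chosen nuclei, is a lincRNA on the plus strand of chromosome 14 from 48668708 to 48870683. Its start overlaps Otx2 on the minus strand by 5112 bases, so the counts of these neighbours are not wholly separate evidence unless the counting used strand, which the sources do not state.

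The start sites of the lineage genes that turned out higher in the chosen nuclei are shown because those genes moved together. RefSeq promoter windows of 300 bases (250 before to 50 after a start, GRCm38.p6) were at hand for 7 of these 10 genes, in 12 windows. AGATAA, with its reverse TTATCT, is a form of the core that GATA factors bind, and other forms were not searched. It stood in 11.2% of the 32851 windows of all genes and in 3 of the 12 windows, those of Tal1 and Otx2. TAATCC or its reverse GGATTA, the core of bicoid-type homeodomain factors such as Otx2, stood in 7.06% of all windows and in 1 of the 12, a window of Otx2 where both cores overlap. The windows below are written 5′ to 3′ on the gene's strand with these cores in capitals. The window of Gata3 holds neither of these exact strings, which does not show that it lacks other forms.
Tal1, chr4:115056176-115056475, plus strand: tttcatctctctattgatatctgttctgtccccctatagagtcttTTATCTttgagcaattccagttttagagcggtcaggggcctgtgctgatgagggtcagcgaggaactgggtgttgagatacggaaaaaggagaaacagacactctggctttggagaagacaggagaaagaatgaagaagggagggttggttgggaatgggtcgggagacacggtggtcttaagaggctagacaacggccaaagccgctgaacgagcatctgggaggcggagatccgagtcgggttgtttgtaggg
Otx2, chr14:48665060-48665359, minus strand: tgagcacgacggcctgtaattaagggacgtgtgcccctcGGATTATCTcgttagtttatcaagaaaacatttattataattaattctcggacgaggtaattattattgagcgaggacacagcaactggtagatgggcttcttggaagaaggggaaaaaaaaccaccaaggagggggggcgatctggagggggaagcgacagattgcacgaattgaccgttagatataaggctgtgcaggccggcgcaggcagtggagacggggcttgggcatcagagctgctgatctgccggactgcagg
Otx2, chr14:48662685-48662984, minus strand: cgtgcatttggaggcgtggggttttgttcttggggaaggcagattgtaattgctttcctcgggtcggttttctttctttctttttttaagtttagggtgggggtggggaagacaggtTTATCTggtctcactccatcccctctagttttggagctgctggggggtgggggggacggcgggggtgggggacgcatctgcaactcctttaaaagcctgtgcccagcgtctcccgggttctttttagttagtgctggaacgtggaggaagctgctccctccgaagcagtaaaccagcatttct
Gata3, chr2:9878551-9878850, minus strand: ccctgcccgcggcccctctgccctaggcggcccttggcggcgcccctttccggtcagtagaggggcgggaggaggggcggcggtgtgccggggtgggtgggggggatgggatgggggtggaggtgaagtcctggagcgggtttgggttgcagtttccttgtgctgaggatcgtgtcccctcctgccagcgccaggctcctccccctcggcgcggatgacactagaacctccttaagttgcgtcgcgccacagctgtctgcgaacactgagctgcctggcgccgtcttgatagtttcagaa
These matches describe letters only and carry no measure of binding.

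The label was checked against genes that the rule did not use. Slc32a1, the vesicular GABA transporter (ENSMUSG00000037771, chromosome 2, 158610767 to 158615748, plus strand), was present at 54.9 CPM in NS replicate 1, 68.4 in NS replicate 2, 23.2 in COL replicate 1 and 37.5 in COL replicate 2. CPM is the number of UMIs of a gene per 1000000 UMIs of the summed nuclei, here without further scaling. Glutamatergic neurons, chosen with the same limits but at least 3 UMIs of Slc17a6 plus Slc17a7 and more of these than of Gad1 plus Gad2, held 14.5 and 12.1 in NS and 2.94 and 9.12 in COL. Nuclei with at least 10 UMIs of the oligodendrocyte genes Mog plus St18 that did not pass as neurons, which should lack Slc32a1, still held 30.6, 24.9, 7.31 and 16.3 in the same order. Slc32a1 was thus higher in the GABA neurons than in either other kind in all 4 libraries, over a level in oligodendrocytes that was itself not low. Of those oligodendrocyte nuclei, 1.24%, 0.402%, 0.227% and 1.06% would have passed the Gad limit of 3 UMIs. They were shallower, with median totals of 4990, 4961, 5699 and 6082 UMIs against 9808, 9200, 13581.5 and 14407.5 in the GABA neurons without Dlx6os1. Otx2os1, listed as a marker of these nuclei but no part of the rule, was detected in a minority of the nuclei. That share moved with depth. Detected Otx2os1 thus marked some of the nuclei, and a nucleus with 0 UMIs is not shown to lack the transcript.

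Many nuclei lay near the limits of the rule. Exactly 3 Gad UMIs were found in 717 of the chosen nuclei, and 1002 nuclei that met every other limit had 2. Of 3997 GABA neurons, 655 were left out for a single Dlx6os1 UMI and 667 for 2 or more. All 5 neuronal genes were found in 2230 of the chosen nuclei, and 1660 had no UMI of Slc17a6 or Slc17a7. Totals less than 1000 UMIs above the depth limit were seen in 56 of them, against 21 otherwise matching nuclei that fell less than 1000 UMIs short of it. The depth also bore on the absence of Dlx6os1. When the same GABA neurons were thinned to 4000 UMIs and Dlx6os1 alone was read again, 73.9%, 91.7%, 78.6% and 89.1% of those of NS replicate 1, NS replicate 2, COL replicate 1 and COL replicate 2 showed none, above the shares given next. With every limit read from thinned nuclei, the Gad limit included, 1000 nuclei met the rule in place of 2675, and the shares were 74.5%, 91.8%, 80.0% and 90.8%.

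The chosen nuclei made up 57.4% of the GABA neurons in NS replicate 1 (95% Clopper-Pearson interval 54.9% to 59.9%), 85.4% in NS replicate 2 (82.9% to 87.7%), 58.8% in COL replicate 1 (54.9% to 62.5%) and 71.9% in COL replicate 2 (68.9% to 74.8%). These intervals cover counting error only. The NS pools lay farther apart from each other than the COL pools did, and the groups overlapped. The mean was 71.4% ± 19.8 (SD, n = 2) in NS and 65.3% ± 9.30 (SD, n = 2) in COL. The difference was −6.09 points (two-sided exact permutation p = 1). Its sign was not stable, as it was −20.1 points without NS replicate 1 and 7.91 points without NS replicate 2. The GABA neurons with Dlx6os1 were 12.1% of all neurons in NS replicate 1, 2.69% in NS replicate 2, 7.29% in COL replicate 1 and 6.84% in COL replicate 2. As a share of all neurons, they varied more than the nuclei without Dlx6os1 between the NS pools and less between the COL pools. The nuclei without Dlx6os1 were 16.3% and 15.8% of all neurons in NS and 10.4% and 17.5% in COL.

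An Otx2os1 UMI was present in 9.10%, 25.0%, 23.7% and 32.2% of the chosen nuclei (NS replicate 1, NS replicate 2, COL replicate 1 and COL replicate 2, an order kept below). The nuclei of COL were deeper, so each nucleus was also thinned to 4000 UMIs, which lost none of them. After thinning, 6.40% of the nuclei in NS replicate 1 had an Otx2os1 UMI (4.89% to 8.22%), 20.7% in NS replicate 2 (17.8% to 23.8%), 16.9% in COL replicate 1 (13.4% to 21.0%) and 25.3% in COL replicate 2 (22.0% to 28.8%). NS replicate 1 stood below the other pools, and the COL values lay on both sides of NS replicate 2. The group means of 13.5% ± 10.1 and 21.1% ± 5.93 (SD, n = 2 each) differed by 7.57 points (two-sided exact permutation p = 0.667). Without NS replicate 1 the difference was 0.444 points.

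Otx2os1 was also found in a low share of other neurons. After the same thinning, glutamatergic neurons showed 3.24%, 2.74%, 2.43% and 3.31%, with median totals before thinning of 15224, 14714, 21157.5 and 18702 UMIs. The GABA neurons without Dlx6os1 were above this share in every pool, by the smallest margin in NS replicate 1. GABA neurons with Dlx6os1 showed 2.27%, 8.13%, 3.24% and 4.21%. At a limit of 3 Otx2os1 UMIs after thinning, 2.13%, 10.1%, 9.09% and 12.7% of the chosen nuclei remained, against 0.606%, 4.88%, 1.08% and 1.92% of the GABA neurons with Dlx6os1 and 0.135%, 0.761%, 0.116% and 0.315% of the glutamatergic neurons. In the nuclei as sequenced, 10 or more Otx2os1 UMIs were held by 1.69%, 5.83%, 7.83% and 11.1% of the chosen nuclei, and the highest counts in a nucleus were 26, 67, 66 and 75. The UMIs of the transcript were thus spread unevenly over the chosen nuclei.

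**Figure D1:**
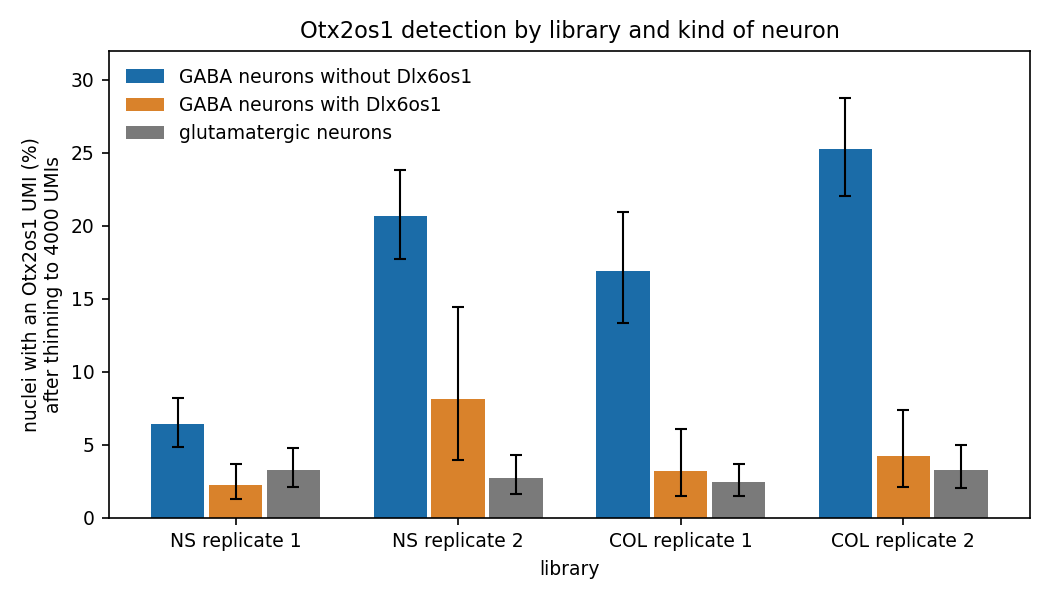
Bars give the percent of nuclei with at least 1 Otx2os1 UMI after thinning each nucleus to 4000 UMIs, by library (x axis) and kind of neuron (colour), and error bars are 95% Clopper-Pearson intervals. In each library the blue bar of the GABA neurons without Dlx6os1 is the highest, from 6.40% in NS replicate 1 to 25.3% in COL replicate 2, while glutamatergic neurons stay between 2.43% and 3.31%.

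The next comparison asked which genes other than those of the rule separated the GABA neurons without Dlx6os1 from the 1322 GABA neurons with it. UMIs were summed over the nuclei of a kind in a library, and the sums were tested with edgeR's quasi-likelihood test with the library as a block and Benjamini-Hochberg adjustment. CPM values of the tested comparisons are after TMM scaling of the sums compared, and fold changes are log2 with their standard error (SE). In such sums, more nuclei of a type and more RNA per nucleus cannot be told apart. Of 16859 genes, 364 passed an adjusted p of 0.05, which is 2.16%, and 125 (0.741%) were higher and 239 (1.42%) lower without Dlx6os1.

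Of 18 genes listed for the midbrain and pretectal GABA lineage, 12 had enough counts, 10 were higher and none was lower. The median log2 fold change was 2.37 beside 0.01 for all genes tested. The lineage lists used here and below were chosen with earlier results of these data known. The 10 include Otx2os1 and Otx2, whose loci overlap, so the counts on these lists are a description and not independent support. Gata3, a zinc finger factor of midbrain and pretectal GABA neurons, reached 9.31 and 33.1 CPM in the NS pools and 29.8 and 33.4 in the COL pools. With Dlx6os1 it was at 0.60, 5.00, 1.37 and 2.99 CPM. The pools did not overlap between the kinds, and the log2 fold change was 3.65 ± 0.20 (adjusted p = 2.38e-07). Tal1, its basic helix-loop-helix partner, was at 4.41, 16.2, 11.9 and 19.1 CPM without Dlx6os1 and at 0.48, 2.14, 0.91 and 0.85 with it (log2 fold change 3.70 ± 0.26, adjusted p = 3.93e-06). As for Gata3, the value of NS replicate 1 was the lowest of the pools in both kinds.

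Otx2os1 itself was at 40.8, 168.8, 164.2 and 201.5 CPM without Dlx6os1 and at 10.6, 46.5, 22.1 and 26.9 with it, and rose by 2.50 ± 0.14 on the log2 scale (adjusted p = 2.38e-07). Otx2, the homeobox factor beside it, was at 3.55, 15.6, 14.2 and 18.1 against 1.45, 2.14, 2.74 and 3.21 CPM (2.23 ± 0.22, adjusted p = 8.95e-05). Both transcripts of this locus were higher in all 4 pools. Sox14, a SOX factor of thalamic and pretectal interneurons, was at 3.07, 13.1, 7.99 and 13.7 against 1.09, 4.29, 0 and 1.92 CPM (2.53 ± 0.37, adjusted p = 0.00166). Pax7, a paired-box factor of the dorsal midbrain and pretectum, was at 3.26, 12.4, 8.52 and 21.7 against 0.48, 0, 0 and 4.49 CPM (2.91 ± 0.35, adjusted p = 0.000451). Gata2 was at 1.82, 4.22, 2.31 and 3.30 CPM without Dlx6os1 and measured no higher than 0.23 CPM with it, a level set by single UMIs. With Dlx6os1, NS replicate 2 had no Gata2 UMI, which allows up to 2.16 unscaled CPM (3 counts). The LIM homeobox factors Lhx5 (1.53 ± 0.19) and Lhx1 (0.92 ± 0.14) and the GATA cofactor Zfpm2 (0.51 ± 0.08) rose less.

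Of 16 tested genes of the prethalamic and forebrain GABA lineage, 9 were lower, none was higher and the median log2 fold change was −0.95. These genes stayed detectable in the nuclei without Dlx6os1. Dlx1, a homeobox factor of the same family as the neighbours of Dlx6os1, was at 11.3, 2.64, 6.74 and 3.02 CPM without Dlx6os1 and at 19.1, 14.3, 12.5 and 15.6 CPM with it (−1.35 ± 0.24, adjusted p = 0.00795). NS replicate 1, the pool with the least Otx2os1, held the most Dlx1 among the nuclei without Dlx6os1. Isl1, a LIM homeobox factor of striatal and other forebrain neurons, was at 27.1, 13.3, 13.8 and 9.35 against 41.6, 36.5, 28.3 and 32.3 CPM (−1.11 ± 0.15, adjusted p = 0.00125). Meis2, a homeobox factor of the TALE class, was the most abundant of the list at 232.3, 297.0, 383.3 and 197.2 against 420.5, 456.0, 783.7 and 422.4 CPM (−0.91 ± 0.07, adjusted p = 4.46e-06). Dlx1as, Lhx8, Dlx5, Lhx6 and Sp9 were lower by 0.98 to 1.47 on the log2 scale. Six3, a homeobox factor of the reticular nucleus, did not pass (−0.60 ± 0.16, adjusted p = 0.0659), nor did Dlx6 (−0.87 ± 0.26, adjusted p = 0.126), which lies inside Dlx6os1.

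**Figure D2:**
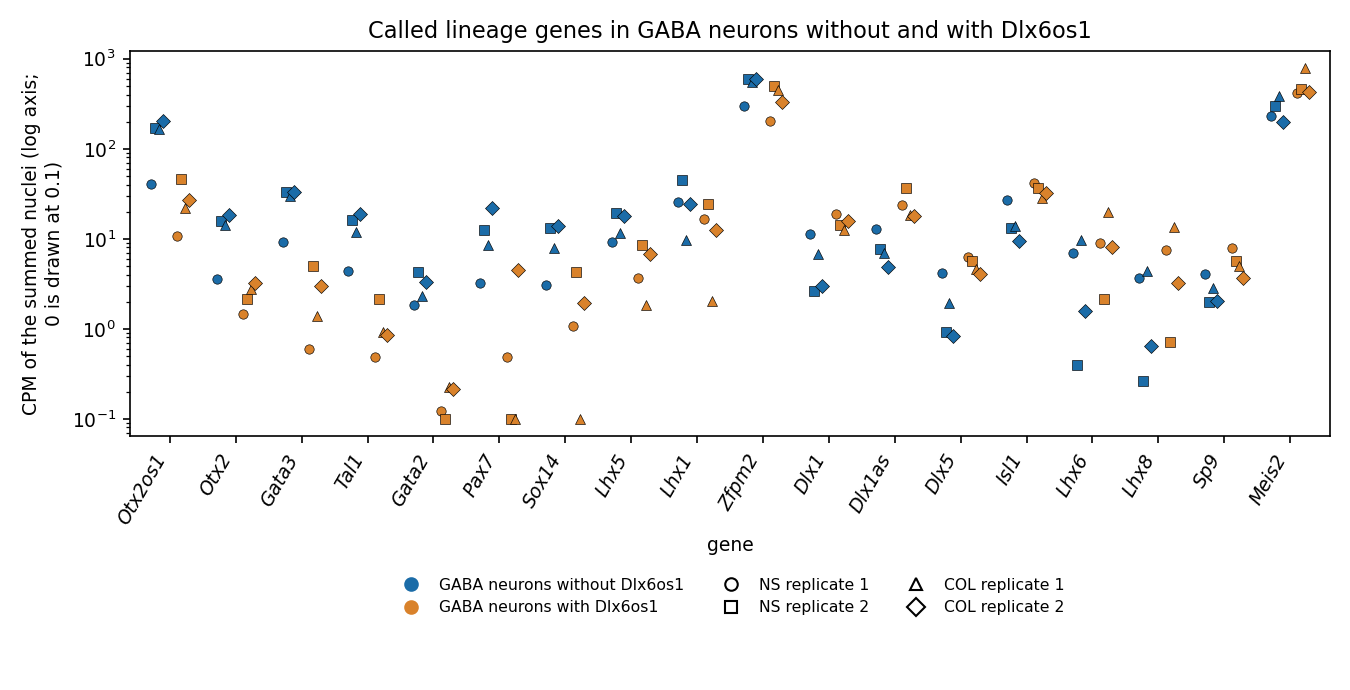
Each point is the level of a gene in the summed nuclei of a library in CPM (log axis, with 0 drawn at 0.1), for GABA neurons without (blue) and with (orange) Dlx6os1, and the marker shape gives the library. For each of the 10 genes on the left, up to Zfpm2, the blue point of a library lies above the orange point of the same library, and for the 8 genes from Dlx1 to Meis2 it lies below.

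Outside the lists, Mecom, a zinc finger transcription factor, had the largest rise of the genes named by size. It was at 3.26, 40.4, 49.0 and 25.6 CPM without Dlx6os1 and at 1.21, 0.72, 0.46 and 1.496 with it (4.32 ± 0.38, adjusted p = 3.57e-05). The helix-loop-helix factors Ebf3 (2.24 ± 0.16) and Ebf2 (1.61 ± 0.23) rose as well, as did Ttn (2.05 ± 0.29), the secreted factor Ccbe1 (1.09 ± 0.23) and the receptor kinase-like gene Ror1 (1.01 ± 0.19). Hs3st4, a heparan sulfate sulfotransferase (−0.82 ± 0.13), and Gda, a guanine deaminase (−0.81 ± 0.11), were lower. Tcf7l2, a factor of the thalamus and midbrain, was at 88.5, 137.3, 229.8 and 129.9 against 61.7, 62.9, 107.2 and 62.2 CPM (0.92 ± 0.09, adjusted p = 7.31e-05).

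None of 8 genes of GABA handling passed between the kinds, near the 2.16% of all genes. Slc32a1 was at 51.1, 68.2, 25.0 and 37.0 CPM without Dlx6os1 and at 54.4, 58.6, 19.4 and 34.6 with it (0.09 ± 0.08, adjusted p = 0.787). Among 22 GABA and glycine receptor genes, 4 rose and 1 fell, and the largest rise was that of Gabrr2, the rho2 subunit, from 1.45, 5.00, 3.42 and 2.56 to 2.49, 11.9, 8.70 and 6.14 CPM (1.17 ± 0.22, adjusted p = 0.00895). Of 20 neuropeptide and calcium-binding genes 1 passed, a share near that of all genes. It was parvalbumin (Pvalb), at 3.93, 14.9, 12.96 and 10.4 against 6.03, 23.6, 23.7 and 17.5 CPM (−0.74 ± 0.12). The dopamine genes Th (−1.15 ± 0.24) and Slc18a2 (−0.57 ± 0.10) were lower.

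Some marker genes of oligodendrocytes and their precursors were higher without Dlx6os1, beside 0.741% of all genes tested. The summed level of 9 oligodendrocyte markers was 1162, 1357, 914.2 and 1479 unscaled CPM without Dlx6os1 and 1073, 1258, 621.2 and 1281 with it, all 9 were detected in every pool, and Mbp alone of the 9 passed (0.40 ± 0.08). Of 4 markers of oligodendrocyte precursors, all lay above 0 (median 0.65) and Bcas1 and Pdgfra (0.83 ± 0.20) passed. Their summed level was 71.8, 64.3, 88.8 and 132.2 unscaled CPM without Dlx6os1 and 58.1, 57.6, 46.4 and 74.6 with it. At least 10 UMIs of Mog plus St18 were held by 42, 43, 31 and 39 of the chosen nuclei. How far RNA from such cells entered these and the other results was not tested.

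Within the GABA neurons without Dlx6os1, nuclei with an Otx2os1 UMI were set against those without. There were 81 and 809 in NS replicate 1, 180 and 541 in NS replicate 2, 94 and 302 in COL replicate 1, and 215 and 453 in COL replicate 2. Their median totals were close, at 9911 and 9761, 8599.5 and 9442, 13716 and 13549.5, and 13416 and 15002 UMIs. With the library as a block, 364 of 15068 genes (2.42%) passed, 191 (1.27%) higher and 173 (1.15%) lower where Otx2os1 was detected. Otx2os1 and the rule's genes were not counted.

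Otx2 rose most among the named genes, from 0.98, 2.98, 1.38 and 2.28 CPM to 29.2, 57.6, 52.9 and 54.4 CPM (log2 fold change 4.63 ± 0.18, adjusted p = 2.62e-14), with the overlap of the loci given above. After thinning, Otx2 was found in 14 of 81, 37 of 180, 20 of 94 and 41 of 215 nuclei with Otx2os1 and in 2 of 809, 7 of 541, 1 of 302 and 2 of 453 without. Genes of other chromosomes went with it. Sox14 was at 9.38, 26.8, 20.0 and 29.4 CPM with Otx2os1 and at 2.50, 9.12, 3.92 and 6.98 without (1.93 ± 0.19, adjusted p = 4.9e-07). Tal1 (1.15 ± 0.17), Pax7 (1.24 ± 0.21), Zfpm2 (0.99 ± 0.07), Gata3 (0.90 ± 0.16) and Lhx1 (0.50 ± 0.13) also rose, so that 7 of 11 tested midbrain and pretectal genes were higher, none was lower and the median was 0.90 beside 0.00 for all genes. Pax7 in NS replicate 1 and Lhx1 in COL replicate 1 went slightly the other way.

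Gata3 was not limited to the nuclei with Otx2os1. In nuclei without it, Gata3 stood at 7.29, 30.9, 24.9 and 26.6 CPM, against 31.3, 42.8, 42.9 and 49.9 CPM in nuclei with it. After thinning, a Gata3 UMI was found in 22 of 809, 55 of 541, 20 of 302 and 39 of 453 nuclei without Otx2os1.

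Other genes marked the nuclei with Otx2os1. Hs3st3b1, a heparan sulfate sulfotransferase, was at 20.8, 65.6, 56.5 and 57.1 CPM with and at 3.92, 8.94, 13.6 and 11.01 without Otx2os1 (2.43 ± 0.14, adjusted p = 1.19e-10). Gabrr2 was at 7.30, 41.0, 23.6 and 14.7 against 2.07, 3.16, 3.69 and 2.42 CPM (2.86 ± 0.25, adjusted p = 6.64e-08). Reln, which encodes the secreted matrix protein reelin, was at 123.0, 196.7, 182.3 and 147.2 against 50.8, 43.1, 77.6 and 40.0 CPM (1.67 ± 0.11, adjusted p = 8e-10). For these genes every pool of nuclei with Otx2os1 lay above every pool without it. Mecom (2.48 ± 0.27), Ccdc141 (1.88 ± 0.14) and the nuclear factor Nfib (1.52 ± 0.09) rose too. Slc32a1 did not pass (0.20 ± 0.11, adjusted p = 0.518).

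On the other side, 5 of 11 forebrain genes were lower and none was higher, with a median of −0.66. Dlx1 was at 3.13, 0.57, 1.43 and 1.202 CPM with Otx2os1 and at 12.5, 3.33, 8.29 and 3.89 without (−2.07 ± 0.38, adjusted p = 0.00199), and Isl1 (−1.21 ± 0.22), Pax6 (−1.49 ± 0.29), Ecel1 (−0.89 ± 0.18) and Meis2 (−0.45 ± 0.12) were lower as well. Grik3, a kainate receptor subunit, was at 119.9, 62.1, 107.9 and 113.0 against 161.4, 110.6, 301.5 and 213.0 CPM (−0.94 ± 0.10). The phosphodiesterase Pde11a (−1.34 ± 0.15), the guidance cue Ntn1 (−0.99 ± 0.18) and the peptide neurotensin (Nts, −1.55 ± 0.36) were lower too.

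**Figure D3:**
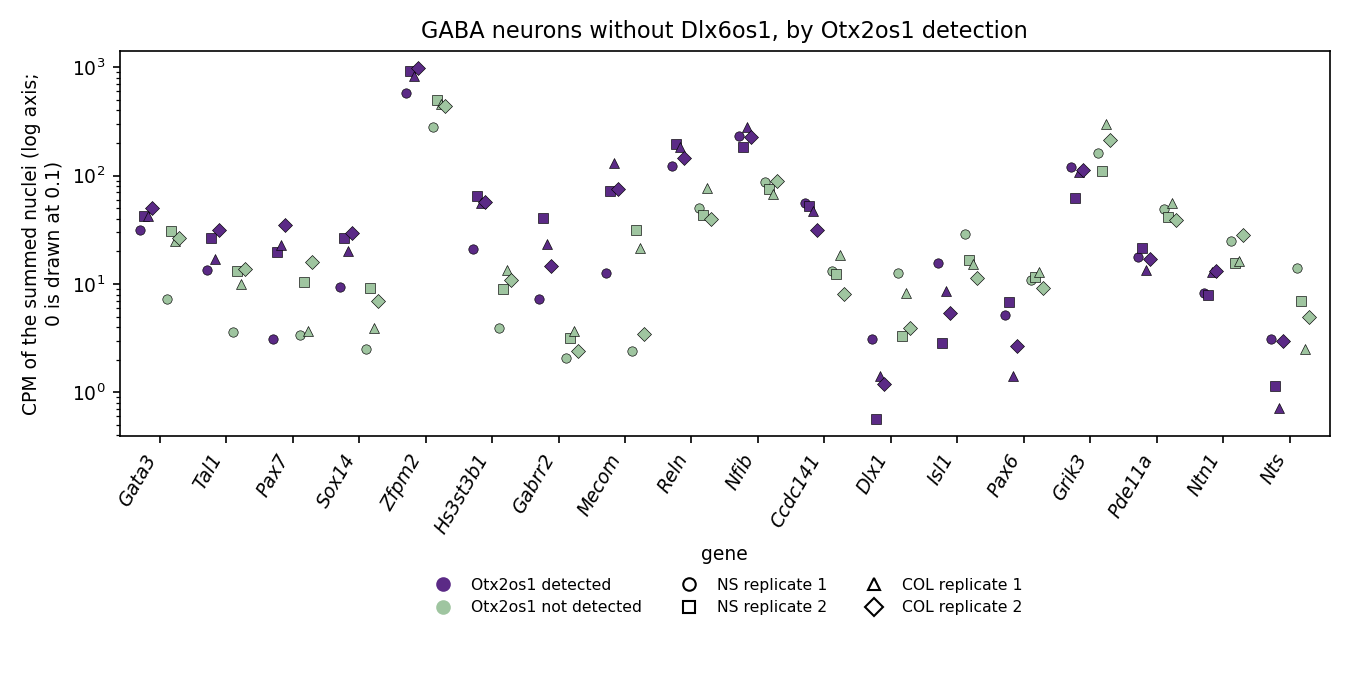
Points give the level of a gene in CPM (log axis) in the summed nuclei of a library, for GABA neurons without Dlx6os1 that had (purple) or lacked (green) an Otx2os1 UMI, with the library given by the marker shape. Sox14, Gabrr2, Hs3st3b1, Reln and Nfib are higher in purple in all 4 libraries, and Dlx1, Isl1, Pax6, Grik3 and Pde11a are lower.

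Against glutamatergic neurons, 4872 of 18087 genes (26.9%) passed, 2429 (13.4%) higher and 2443 (13.5%) lower in the GABA neurons without Dlx6os1. Gm14204, a non-coding transcript on the minus strand that starts 43 bases from the start of Slc32a1 on the plus strand, was at 44.1, 64.1, 73.0 and 69.4 CPM against 3.35, 3.17, 2.75 and 4.65 (4.17 ± 0.14, adjusted p = 1.12e-07). Gad1os rose alike (4.23 ± 0.29) but shares 10286 bases with Gad1. Slc32a1 (2.13 ± 0.14, adjusted p = 5.15e-06) was among 5 of 8 GABA handling genes that rose. Gata3 (4.51 ± 0.21), Otx2os1 (3.44 ± 0.24) and Mecom (3.23 ± 0.24) were higher, as were 10 of 12 genes of the forebrain list, Six3 (2.91 ± 0.26) and Meis2 (2.18 ± 0.35) among them.

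Of 10 genes of thalamic glutamatergic neurons, 9 were lower. Synpo2, an actin-binding protein, was at 32.3, 44.8, 87.3 and 42.5 CPM against 476.4, 638.8, 868.5 and 385.1 (−3.55 ± 0.12, adjusted p = 1.12e-07). Prkcd (−3.29 ± 0.16), Tcf7l2 (−2.33 ± 0.10) and Rora (−1.01 ± 0.13) were lower too, and Mrvi1, an IP3 receptor-associated protein, fell most among the named genes (−3.93 ± 0.12). Among receptors of tonic inhibition, Gabrd, the delta subunit of extrasynaptic GABA-A receptors, was at 5.51, 6.38, 13.8 and 4.85 against 42.0, 73.5, 58.9 and 35.3 CPM (−2.83 ± 0.17) and its partner Gabra4 was lower by 2.36 ± 0.14. Gabrr2 (1.66 ± 0.25) and the glycine receptor subunit Glra3 (0.59 ± 0.12) were higher.

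The T-type calcium channels, which drive thalamic bursts, went both ways. Cacna1g, the form of relay neurons, was lower (−1.38 ± 0.07) and Cacna1h (1.22 ± 0.22) and Cacna1i (0.76 ± 0.14) were higher. Counts of the following lists stand beside 13.4% of all genes higher and 13.5% lower. Of 25 potassium and HCN channel genes, 13 were lower, with Hcn4 at −1.25 ± 0.14 and Kcnq3 at −1.13 ± 0.08, and 4 were higher. The NMDA receptor subunit Grin2c was lower by 2.38 ± 0.10 and Grik3 higher by 0.67 ± 0.10. Of 21 peptide and calcium-binding genes, 10 were higher and 4 lower. Somatostatin (Sst), for example, was at 34.1, 25.9, 10.2 and 13.5 against 22.4, 12.9, 3.63 and 10.8 CPM (0.78 ± 0.15), enkephalin (Penk) rose by 1.15 ± 0.23 and neuropeptide Y (Npy) by 0.87 ± 0.15, while calbindin (Calb1, −1.34 ± 0.11) and cholecystokinin (Cck, −0.76 ± 0.15) were lower. Of 14 activity-induced genes, 7 were lower and none was higher, among them Bdnf (−1.53 ± 0.13) and Fos (−0.60 ± 0.15). Oligodendrocyte markers were higher in 8 of 9 cases here, from summed levels of 755.4, 972.1, 535.8 and 1197 unscaled CPM in the glutamatergic neurons. All 4 markers of oligodendrocyte precursors (Bcas1, Cspg4, Pdgfra and Vcan) were also higher. Of 10 tested microglia and macrophage markers 2 were (Cx3cr1 and Inpp5d), near the 13.4% of all genes. The part of RNA from these cells in the other results was not tested.

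The study's own contrast, COL against NS, was made on the 4 sums of the GABA neurons without Dlx6os1. Of 18064 genes, 24 passed, which is 0.133%, with 22 (0.122%) higher and 2 (0.0111%) lower in COL. At this share a short list with no call is near the background. The balance of directions rests on the setting, as DESeq2 called 336 higher and 721 lower and thinned sums gave 194 and 438. Adjusted p-values of the 24 lay between 0.0206 and 0.0469, and 4924 genes had an unadjusted p under 0.05. Among the 22 were 3 of 10 tested microglia and macrophage markers (Gpnmb, Inpp5d and Lyz2), with a list median of 1.68 on the log2 scale. Not all of the list rose, as 9 of the 10 lay above 0 and Cx3cr1 changed little (0.18 ± 0.27, adjusted p = 0.698). The 22 also held 1 of 4 tested genes of the T and NK cell list, with a list median of 2.55. That gene, Ptprc, belongs to leukocytes in general, and the other 3 did not pass. For all genes tested the median was 0.00. The filter on low counts let a gene enter through a single group. List medians and counts above 0, here and below, are therefore partly set by that filter where levels are low. Lyz2, the lysozyme of macrophages, was at 0.48 and 0.40 CPM in NS and at 13.4 and 36.3 in COL (5.78 ± 0.64, adjusted p = 0.0338). Gpnmb, a glycoprotein of phagocytes that take up lipid, was at 0.38 and 0.27 against 11.3 and 12.3 CPM (5.09 ± 0.41, adjusted p = 0.0206). Ptprc, the leukocyte antigen CD45, was at 1.06 and 1.33 against 10.0 and 14.0 CPM (3.35 ± 0.36, adjusted p = 0.0331). Inpp5d, a phosphatase of blood and microglial cells, was at 5.58 and 4.78 against 27.2 and 28.3 CPM (2.41 ± 0.21, adjusted p = 0.0275). The groups did not overlap for any of these.

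Hmox1, the haem oxygenase that breaks down haem, was at 0.48 and 0.53 CPM in NS and at 11.8 and 12.5 in COL (4.56 ± 0.37, adjusted p = 0.0206). Serpina3n, an acute-phase protease inhibitor, was at 2.60 and 1.99 against 17.7 and 31.0 CPM (3.40 ± 0.36, adjusted p = 0.0331). Hmga2, a chromatin protein, was at 0.87 and 0.27 against 18.4 and 33.5 CPM (5.40 ± 0.50, adjusted p = 0.0318). Lgals3, Thbs1, Apobec1, Ly86, Runx1, Fyb, Pik3ap1, Stab1, Adap2, Ikzf1, Dock8 and 3 genes listed under provisional names (AU020206, Gm26740 and Gm14005) rose by 2.36 to 5.12. Mir6236, annotated as a microRNA, rose least (1.22 ± 0.13). Lrtm1, a leucine-rich repeat membrane protein, was at 58.5 and 47.2 against 11.8 and 17.3 CPM (−1.84 ± 0.22, adjusted p = 0.0455), and Gm16189 was lower by 1.79 ± 0.21.

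The counts of these genes in a nucleus differed widely. Lyz2 was found in 5 of 890 and 3 of 721 nuclei of NS and in 59 of 396 and 283 of 668 nuclei of COL, with at most 9 UMIs in a nucleus. Ly86 reached 62 UMIs in a nucleus of COL, Runx1 47, Inpp5d 23 and Fyb 22, and the median of the highest counts of the 22 genes was 11 in each COL pool. Glutamatergic neurons, which should lack Lyz2, showed it in 0.405% and 0.457% of nuclei in NS and in 17.0% and 45.4% in COL, against 0.562% and 0.416% and then 14.9% and 42.4% in the GABA neurons without Dlx6os1. Hmox1 likewise was found in 16.1% and 17.6% of the glutamatergic neurons and in 11.9% and 16.5% of the GABA neurons of COL. Over the 22 genes, 10 in COL replicate 1 and 5 in COL replicate 2 were found in more of the GABA neurons without Dlx6os1 than of the glutamatergic neurons, which were deeper. After thinning to 4000 UMIs, 17 and 18 were. Lyz2 was then in 4.55% and 15.1% of the GABA neurons and in 3.01% and 13.4% of the glutamatergic neurons of COL, and Fyb in 6.06% and 6.44% against 2.89% and 4.41%. By unscaled CPM, 21 and 20 of the 22 were higher in the GABA neurons of COL, and 18 and 13 were in NS. Against the GABA neurons with Dlx6os1, 21 and 16 were higher in COL by unscaled CPM and 11 and 11 in NS, and 21 and 15 were found in more nuclei of COL after thinning (17 and 7 before it). Gpnmb, for example, stood at 12.3 unscaled CPM in COL replicate 2 without Dlx6os1 and at 35.1 with it. The 22 genes were picked because they were high in COL in the GABA neurons without Dlx6os1. That choice tilts these comparisons toward the same nuclei. These differences between the kinds were not tested, nor was the part of RNA from other cells. The 12 microglia and macrophage markers summed to 70.1 and 81.2 unscaled CPM in NS and to 102.8 and 167.3 in COL, with Cd163 at 0 in COL. In glutamatergic neurons they summed to 48.2 and 68.2 in NS and to 58.9 and 147.4 in COL. Of Inpp5d UMIs, 58.6%, 55.6%, 57.2% and 25.8% lay in nuclei that a doublet score marked, which were 12.2%, 13.04%, 9.85% and 7.49% of the chosen nuclei. Over the 22 genes this part of the UMIs ranged from 1.94% to 68.1% (median 42.4%) in COL replicate 1 and from 0.552% to 32.2% (median 18.7%) in COL replicate 2. Lyz2 stood at 18.7% and 6.89%, and Gpnmb at 11.1% and 12.03%. Without the marked nuclei 4 genes passed, namely Fyb, Gpnmb, Hmga2 and Hmox1, all among the 24. With at least 5 Gad UMIs required, none of 15826 genes passed, the 24 stood at an adjusted p of 0.102 and 3598 genes had an unadjusted p under 0.05. Without NS replicate 1 none passed (2875 at an unadjusted p under 0.05), and without any other single library between 317 and 2366 did.

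Hmga2 and Atf3 were held at high counts by few nuclei. Hmga2 had 103 UMIs in 16 of 396 and 362 UMIs in 37 of 668 nuclei of COL, and at most 2 UMIs in any nucleus of NS. Up to 58 and 162 UMIs lay in a single nucleus of COL, a large part of each sum. In the GABA neurons with Dlx6os1 of COL it had 98 and 19 UMIs, with up to 88 and 2 in a nucleus. In the glutamatergic neurons of COL it had 43 and 99, with up to 4 and 27. Atf3, a stress-induced transcription factor that marks injured neurons, had no UMI in the 890 and 721 nuclei of NS, which allows up to 0.309 and 0.397 unscaled CPM (3 counts in a library). In COL it had 111 UMIs in 32 nuclei of replicate 1 and 66 in 21 nuclei of replicate 2, with up to 24 and 21 in a nucleus, or 18.3 and 6.12 unscaled CPM. It was found in 4.51% and 4.88% of the glutamatergic neurons of COL, with up to 13 and 20 UMIs in a nucleus. The adjusted p of Atf3 was 0.0513, just above the threshold, so it did not pass in the main setting. It passed under most alternatives, some of which leave a single library in a group.

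Several genes of the lists stood near the threshold with groups that did not overlap. They are examples and not singled out by the test, since 4924 of 18064 genes had an unadjusted p under 0.05. Sst was at 36.3 and 27.5 CPM in NS and at 10.5 and 14.4 in COL (−1.34 ± 0.23, adjusted p = 0.0536). Cck was at 15.4 and 29.6 against 4.47 and 5.74 CPM (−2.10 ± 0.36, adjusted p = 0.0525), and Slc32a1 was at 51.2 and 68.7 against 25.2 and 37.4 CPM (−0.92 ± 0.23, adjusted p = 0.0693). None of 21 neuropeptide and calcium-binding genes passed (0.133% of all genes did), with a median of −1.34 beside 0.00 for all genes. The same direction was seen in glutamatergic neurons, where Sst stood at 22.4 and 12.02 unscaled CPM in NS and at 3.09 and 10.7 in COL. There Cck stood at 18.8 and 40.4 in NS and at 10.8 and 10.4 in COL, and the Slc32a1 values of both kinds stand in the label check. Stat3, which carries cytokine signals to the nucleus, was at 41.7 and 43.0 CPM in NS and at 107.2 and 84.3 in COL (1.17 ± 0.16, adjusted p = 0.0513). The antigen presentation gene B2m (1.96 ± 0.31), the cholesterol exporter Abca1 (1.28 ± 0.20) and the STAT target Socs3 (2.02 ± 0.51) did not pass either. Their adjusted p were 0.0513, 0.0513 and 0.0728. These misses hold for the main setting, and Cck, B2m and Abca1 passed under most alternatives, some of which leave a single library in a group.

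**Figure D4:**
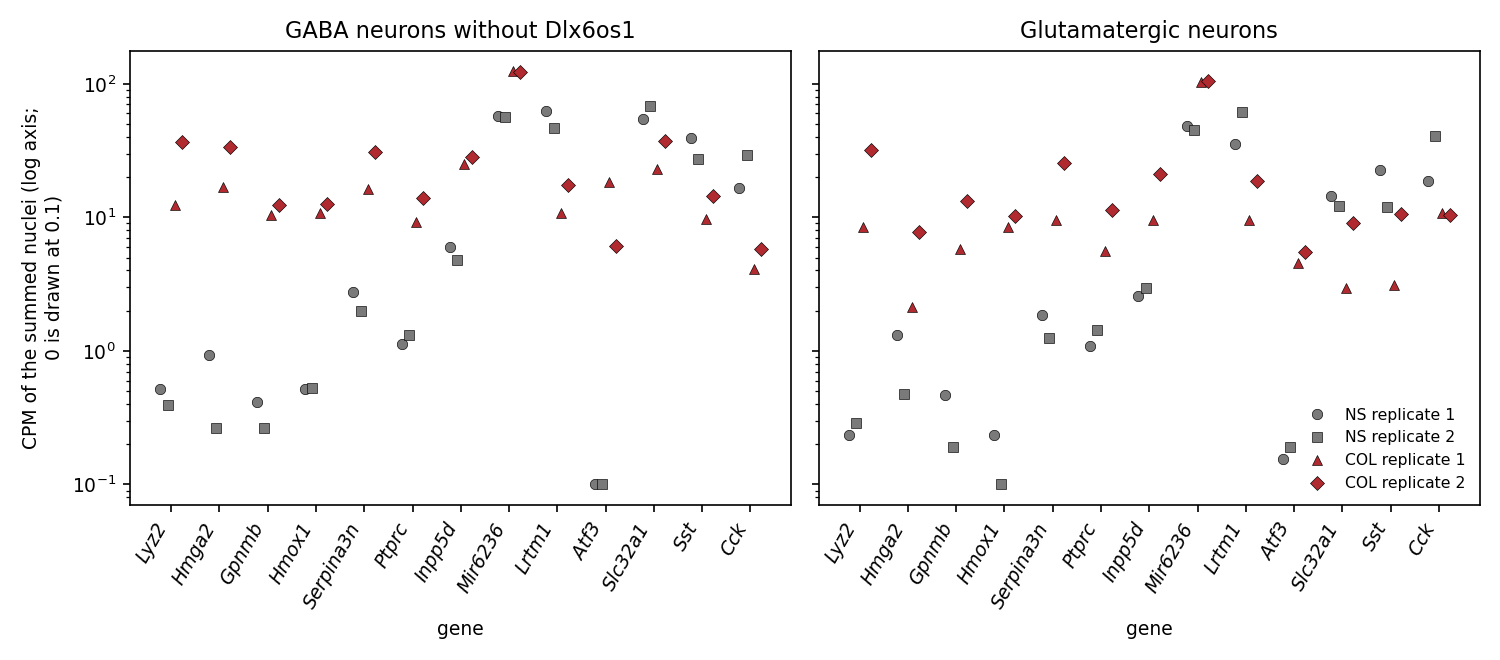
Points give unscaled CPM (log axis, with 0 drawn at 0.1) in each library, with NS in grey and COL in red, for GABA neurons without Dlx6os1 (left) and glutamatergic neurons (right). Lyz2, Gpnmb, Hmox1, Serpina3n and Inpp5d are higher in both COL libraries in both panels, and Lrtm1, Sst and Cck are lower.

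None of 14 tested midbrain and pretectal genes and none of 15 forebrain genes passed in COL against NS, near the 0.133% of all genes that did. Otx2os1 was at 40.9 and 170.0 CPM in NS and at 165.3 and 203.4 in COL (0.82 ± 0.53, adjusted p = 0.36). The NS pools were farther apart than the groups were. Finally, the COL against NS change was compared between the GABA neurons without and with Dlx6os1 by an interaction term. Of 18191 genes, 0 passed (0%) with edgeR, 665 had an unadjusted p under 0.05, and DESeq2 also called 0. The interaction of Otx2os1 was 0.99 ± 0.15 (adjusted p = 0.241) and passed in 4 of 10 alternatives, with adjusted p from 0.000199 to 1. A p that misses the threshold does not show that the changes were alike.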

How the data were processed

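Nuclei from thalamic tissue were profiled in 2 NS and 2 COL libraries, grouped by the treatment given in the labels. According to the submitters' processing notes, reads were processed with Cell Ranger 1.2.0 against mm10. The authors deposited whole-number UMI counts per gene and barcode for each library, without normalization, and whether intronic or stranded reads were counted is not given in the sources used here. The libraries held 68746459 to 77557870 UMIs. The summed GABA neurons without Dlx6os1 held 6079406 to 10776310 UMIs a library. Members and gene lists were chosen with earlier results of these data known.

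UMIs were summed per library and kind of neuron and tested with edgeR 4.0.16 (quasi-likelihood test, TMM, filterByExpr, Benjamini-Hochberg adjustment, threshold 0.05). DESeq2 1.42.0 under R 4.3.3 was an alternative, and Python 3.11.15 with numpy 2.4.6 and scipy 1.17.1 made the sums, thinning and intervals. Genes of the rule stayed in the fits but were not counted. A gene of low counts could enter a test through the group or kind where it was high. Genes were named from 20 lists and, outside them, as the 10 with the largest change in each direction that passed, moved alike in every library and averaged at least 20 CPM in the higher group. Atf3 and the comparison of nuclei per gene in COL were chosen after their values were seen. No doublets or free RNA were removed in the main setting. A score from simulated sums of nuclei marked 281 to 869 nuclei a library in an alternative. Between 8 and 31 barcodes were shared by pairs of libraries, none by 2 members. On simulated counts, 200 well-counted genes were changed, among 18075 in COL against NS and among 16871 between the kinds of GABA neuron. In COL against NS, edgeR recovered 38% of 2-fold and 90% of 4-fold changes, with 8 false calls. Between the kinds it recovered 89% and 100%, with 19 false calls. Genes of low counts were not changed, so recovery for them was not measured. In the simulated COL against NS, DESeq2 recovered 34% and 85%, close to edgeR. In the data it called 1057 genes where edgeR called 24. The recovery on simulated counts therefore may not carry over to the data. Other alternatives were other depth and Gad limits, no filter on low counts, thinned sums, the library or replicate block and leaving out each library. Limits of 5 Gad UMIs in the gene tests and the reading of Dlx6os1 alone from thinned nuclei were added after the data were seen. A few genes of these lists are counted but not reported here by name.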

Additional observations from a re-analysis of the deposited data

How the results depend on the processing

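No share passed the exact permutation test under any alternative that left 2 libraries a group, which the design cannot allow. The difference in the share without Dlx6os1 turned to 2.28 points when every limit of the rule was read from thinned nuclei, which left 1000 nuclei, and to 1.09 points when Dlx6os1 alone was, and ranged from −20.1 to 7.91 points without each library. The Otx2os1 difference ranged from 0.444 to 14.7 points without each library and stayed above 0 under the others. In COL against NS, the 24 calls became 1057 with DESeq2 (336 higher, 721 lower), 3566 without the filter on low counts (1507 and 2059), 632 on thinned sums (194 and 438), 4 without marked doublets, 0 at 5 Gad UMIs (3598 at an unadjusted p under 0.05) and 0 to 2366 without each library. All 24 were among the calls of DESeq2, of no filter and of thinned sums. The count of COL changes therefore rests on the setting. The replicate number as a block gave 1931 calls (588 higher, 1343 lower), but same-numbered NS and COL libraries deviated together only weakly (correlation 0.0819 across 18075 genes, 2 pairs), and they share a number only. Without against with Dlx6os1, the 364 calls became 207 with DESeq2, 750 with no filter, 226 on thinned sums, 0 without the library in the model (no replicate block, 295 at an unadjusted p under 0.05) and 237 to 353 without each library, of which 217 of 237 were shared without NS replicate 2 and 216 of 241 without COL replicate 2. Against glutamatergic neurons, the 4872 calls became 2513 on thinned sums and 1172 with no replicate block. By Otx2os1, the 364 calls became 149 with DESeq2, 587 with no filter, 227 at 5 Gad UMIs, 9 with no replicate block and 216 (without NS replicate 2) to 394 without each library, with 232 without COL replicate 2. The interaction gave 33 calls with no filter, 3 without doublets and 0 to 72 without each library. The cause of these shifts was not tested. None of the named genes recomputed (32 in COL against NS, 37 without against with Dlx6os1, 31 against glutamatergic neurons, 23 by Otx2os1 and Otx2os1 in the interaction) reversed its direction under an alternative. Cx3cr1, named for COL against NS but not among the 32, ranged from −0.098 to 0.483 on the log2 scale and so changed sign. Otx2os1 passed in the interaction with no filter (adjusted p = 0.000199), without doublets (0.0336) and without COL replicate 1 (0.00143) or 2 (0.00526).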

Other observations

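Genes of injury and immune signalling were also examined in the GABA neurons without Dlx6os1. In COL against NS, 1 of 18 tested genes of axon injury and cell stress passed (Hmox1, higher), with a median log2 fold change of 0.19. None of 14 tested genes of gp130-STAT3, interferon and antigen presentation passed, although 13 of the 14 lay above 0 and their median was 1.19. Of 14 activity-induced genes none passed, 1 lay above 0 and the median was −0.55. Over all 18064 genes tested 0.133% passed, so a list with no call is near the background, and the median was 0.00.

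Transmission and excitability genes were examined in the same way, beside the same 0.133% of all genes. None of 22 GABA and glycine receptor genes (median −0.02), none of 18 ionotropic glutamate receptor genes (0.30, 17 above 0), none of 25 potassium and HCN channel genes (0.16) and none of 20 sodium and calcium channel genes (0.20) passed in COL against NS. Astrocyte markers had a median of −0.72, with 0 of 8 called. They summed to 261.1 and 201.6 unscaled CPM in NS and to 109.7 and 141.2 in COL.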
